A study of Mus musculus with 64 samples.

Results

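Clone E is 1 of 7 clonal tumor lines taken from the pancreatic tumor of a KPC mouse, and the 8 of 64 libraries that carry its name were analysed here: 4 from mono-culture and 4 from tumor cells that had been grown with fibroblasts. KPC mice carry engineered tumor alleles, a point-mutant Trp53 allele among them, that are switched on by a Cre recombinase under the Pdx1 promoter, which is active in the pancreatic epithelium, and the labels give the strain background of all groups as C57BL/6 mixed. The coculture lasted 48 h, after which tumor cells were separated from fibroblasts by their green fluorescence. The other 56 libraries come from clones H, V, K, M, N and T and from the KPC1 line, each with 4 libraries in both cultures. The clones share the KPC alleles, whereas the origin of KPC1 is not described in the sources used here. The labels do not say whether mono-cultures went through the sorter, and they do not describe the fibroblasts. Clone E is a single clone, and the labels do not say that its libraries come from separate cultures, so p-values here measure the spread between libraries.

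Fibroblasts are the main stromal cell of pancreatic tumors and supply tumor cells with matrix, growth factors, cytokines, amino acids and lipids. Tumor cells read this supply through several transcription programs. The integrated stress response, run by the transcription factor ATF4, adjusts amino acid synthesis and tRNA charging. Myc raises ribosome production, SREBP factors control sterol and fatty acid synthesis, TFEB controls lysosomal genes, and AP-1 factors are made within minutes of a growth or stress signal.

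Library totals of clone E ran from 13162870 to 21333683 counts in mono-culture and from 13063681 to 14950290 in coculture, within the 11178721 to 21333683 of the whole series. Each clone E library was most highly correlated with another library of its own culture. Epithelial keratins and E-cadherin were read in all 8 libraries, whereas Epcam, an epithelial adhesion molecule, had no count in any of them. Krt8, a keratin of simple epithelia, stood at 1121, 1111, 1118 and 961 CPM (counts scaled to a common library total) in mono-culture and at 1061, 1144, 832 and 752 CPM in coculture. Krt19, a ductal keratin, stood at 796, 638, 813 and 666 CPM and then at 451, 526, 409 and 426 CPM, and Cdh1, the gene of E-cadherin, at 126 to 155 CPM and 112 to 191 CPM. Of the sorted libraries, replicate 2 stood apart from the other 3 for many genes that fell, where it lay between them and the mono-cultures. Mono-culture replicate 4 had the highest levels of several immediate-early genes and the lowest of several stress response genes. Results that rest on either are given with their values.

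Coculture went with a wide change in clone E. Of 14134 genes tested, 4540 rose, which is 32.1% of the genes, and 4131 fell, which is 29.2%, at an adjusted p-value under 0.1 by edgeR's quasi-likelihood test with Benjamini-Hochberg adjustment, the test behind all adjusted p-values below. The rise was at least 1 on the log2 scale for 1416 genes and the fall for 1259, and the median size of a change over all genes was 0.46. In 3399 genes (24% of those tested) every coculture library lay above every mono-culture library, and in 3038 (21.5%) every one lay below. By the same test, clones T and V had 8790 and 8688 changed genes against 8671 (61.3%) in clone E, and the other 5 lines had between 2894 (clone K) and 6215 (clone H). Among the genes that rose in clone E, 1838 had a fold change above 0 in all 7 other lines, and 1439 of those that fell had one below 0 in all 7.

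**Figure D1:**
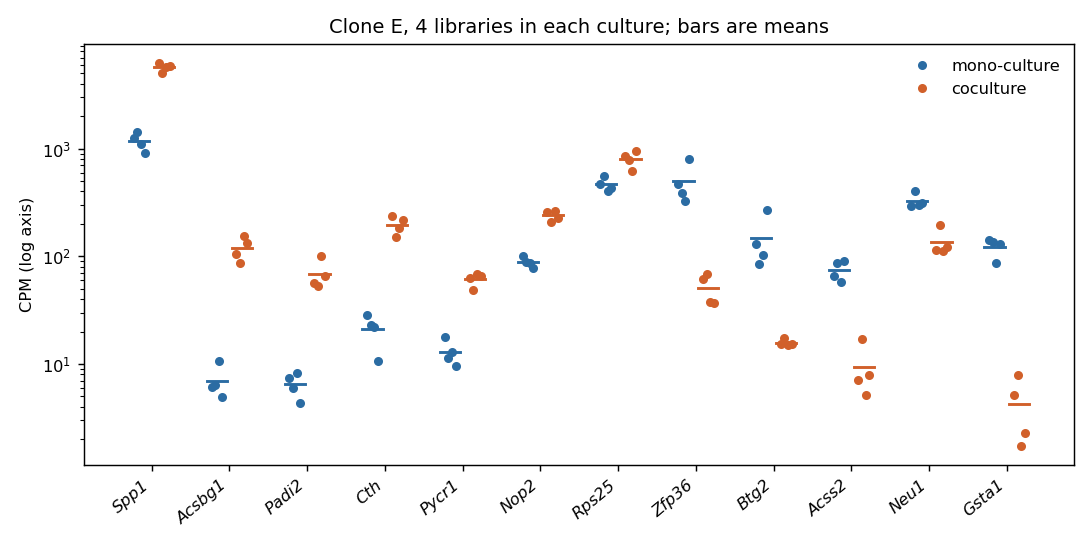
CPM of 12 genes in the 8 clone E libraries, on a log axis. Each point is a library, blue for mono-culture and orange for coculture, and each bar is the mean of 4. Acsbg1 was at most 10.7 CPM in mono-culture and at least 87.1 CPM in coculture, and the 2 cultures did not overlap for any gene drawn.

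Fibroblast genes appeared in the sorted clone E libraries. Of the fibroblast markers, 7 (Fap, Postn, Mfap5, Tcf21, Dcn, Lum and Thy1) had at most 3 counts in any mono-culture library of any line. Their summed level in clone E after coculture was 32.1, 51.9, 79.8 and 79.6 CPM, and the means of the other lines ran from 56.8 to 97.6 CPM. Postn, a matrix protein secreted by activated fibroblasts, had no count in the 4 mono-cultures and 18.8, 36.8, 62 and 55.5 CPM in the cocultures, at least 996-fold higher when 3 counts over the 4 mono-cultures are taken as the floor. Thy1, a surface protein of fibroblasts, went from no count to 5.6, 5.82, 8.45 and 10.7 CPM, at least 177-fold higher by the same floor. Tcf21 had no count in any library of either culture. In the cocultures of clone E, Mfap5 stood at 0, 0, 0 and 0.215 CPM and Lum at no more than 0.274 CPM. Postn alone averaged 43.3 CPM of the mean sum of 60.8 CPM. These 7 markers were picked as silent in mono-culture, a choice that favours a rise of their sum.

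Of the whole list of 31 fibroblast markers, 27 were tested, 20 rose in clone E and 1 fell, beside 32.1% and 29.2% of all genes. The median log2 fold change of the list was 4.04, also with members at or under the floor set to their bound, against 2.82 for the mean of the other lines and 0.03 for all genes tested in clone E. Taken gene by gene, the median difference between clone E and the other lines was -0.15. The response of 4 of the 27 lay above the other lines' mean and of 1 below it, against 15.2% and 14.2% of all genes. Here and in the lists below, a member counts as above or below this mean only where its difference passed the test. Summed over the list, clone E held 7162 to 8288 CPM in mono-culture and 7636 to 10360 CPM in coculture, most of it from genes such as Vim that clone E reads itself. Vim, an intermediate filament, was at 4485, 4722, 4021 and 4567 CPM in mono-culture and 3868, 4960, 4280 and 3557 CPM in coculture. Col1a1, a chain of type I collagen (chr11:94936224-94953042, GRCm38), went from 6.15, 9.61, 7.79 and 6.38 CPM to 95.7, 141, 263 and 186 CPM, a log2 fold change of 4.53 ± 0.475 (SE). Bgn, a matrix proteoglycan, went from 5.27, 6.04, 4.51 and 5.95 CPM to 94.1, 88.3, 173 and 140 CPM. In both genes the 2 cultures did not overlap, and neither differed from the mean response of the other lines (adjusted p = 0.821 and 0.548). The leukocyte list summed to 56.49 to 67.06 CPM in mono-culture and 50.66 to 79.62 CPM in coculture, most of it Cd14 and Cd68, which clone E read in both cultures (means of 45.6 and 15.8 CPM, then 40.8 and 20.7 CPM), while Ptprc, the pan-leukocyte marker, had no count in coculture. The endothelial list summed to at most 3.911 CPM there. Whether fibroblast RNA was carried into the sorted libraries or read by the tumor cells cannot be told apart here, and its part in the results below was not tested. In bulk libraries a smaller share of a cell type and less RNA per cell cannot be told apart either.

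Beside these matrix genes, Acsbg1, Padi2, Avil, Cth, Mrc1 and Mcpt8 had the largest rises in clone E among the genes above 5 CPM in mono-culture. Acsbg1, which attaches long fatty acids to coenzyme A, went from 6.15, 6.33, 10.7 and 4.89 CPM to 104, 87.1, 155 and 134 CPM. Its log2 fold change was 4.09 ± 0.404 (SE, adjusted p = 9.14e-12), against a mean of 1.02 and a range of 0.08 to 3.06 in the other lines, a difference of 3.07 ± 0.41 (adjusted p = 4.81e-07). Padi2, which converts arginine in proteins to citrulline, rose from 7.35, 6.04, 8.16 and 4.34 CPM to 56.2, 53.3, 101 and 65.3 CPM, by 3.40 ± 0.403 (adjusted p = 8.71e-10). Avil, an actin-severing protein, rose by 3.26 ± 0.53 (adjusted p = 8.58e-07), which was 1.65 ± 0.564 above the mean of the other lines but inside their range.

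Spp1 encodes osteopontin, a secreted phosphoprotein of ductal and tumor cells. It stood at 1253, 1431, 1113 and 913 CPM in mono-culture and at 6224, 5069, 5697 and 5840 CPM in coculture, a log2 fold change of 2.28 ± 0.276 (adjusted p = 1.47e-09). The other lines moved by 0.56 on average, with a range of -0.64 to 2.14, so clone E lay above them all, although their own means in coculture reached 10110 CPM. Igfbp3, a carrier of insulin-like growth factors, rose from 42.4, 36.3, 42 and 28.6 CPM to 220, 149, 288 and 202 CPM. The rise of Igfbp3 was 2.52 ± 0.341 (adjusted p = 1.87e-08), inside the other lines' range of -0.98 to 2.71. Mrc1, a mannose receptor, rose by 2.95 ± 0.451 (adjusted p = 2.52e-07), and Mcpt8, a serine protease best known from mast cells and basophils, rose by 2.67 ± 0.279 (adjusted p = 3.94e-11). Mrc1 and Mcpt8 stood at 39.7 to 80.2 CPM and at 30.6 to 50 CPM in coculture.

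Most genes of amino acid supply rose. Of 53 tested genes of the integrated stress response, 42 rose in clone E and 1 fell, beside 32.1% and 29.2% of all genes. The median log2 fold change of the list was 0.93 against 0.03 for all genes. Cth, which makes cysteine from cystathionine (chr3:157894248-157925077), went from 28.8, 23, 22.2 and 10.6 CPM to 235, 151, 185 and 217 CPM, by 3.21 ± 0.343 (adjusted p = 6.31e-11). Pycr1, which makes proline (chr11:120635712-120643769), went from 17.9, 11.4, 13 and 9.66 CPM to 63.1, 49.1, 68.9 and 65 CPM, by 2.23 ± 0.215 (adjusted p = 4.11e-12). Asns, which makes asparagine from aspartate (chr6:7675169-7693254), went from 196, 141, 178 and 102 CPM to 530, 372, 470 and 437 CPM, by 1.55 ± 0.275 (adjusted p = 4.44e-06). In these 3 genes the lowest coculture library lay above the highest mono-culture, and mono-culture replicate 4 was the lowest of all 8.

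Psph, the last enzyme of serine synthesis, rose by 1.88 ± 0.214 (adjusted p = 3.17e-10), and Aldh18a1, the first enzyme of proline synthesis from glutamate, rose by 1.86 ± 0.251 (adjusted p = 1.69e-08). Pck2, the mitochondrial phosphoenolpyruvate carboxykinase, went from 131, 112, 114 and 84.3 CPM to 222, 192, 213 and 166 CPM. Atf4 itself went from 569, 554, 529 and 482 CPM to 993, 779, 900 and 940 CPM, by 0.76 ± 0.174 (adjusted p = 0.00023). The transcript of Atf4 reports only part of its activity, since the protein is set mostly by translation. The list rose in the other lines as well: the median of their mean response was 0.75, and clone E ranked 4th of 8 lines. The response of 8 members passed the test above the mean of the other lines and of 3 below it, against 15.2% higher and 14.2% lower over all genes tested. Whether or not they passed, 38 of the 53 lay above it. Pycr1 was 1.27 ± 0.225 above that mean (adjusted p = 5.25e-05) and above each of the 7 lines, whose range was 0.23 to 1.56, and Cth was 1.69 ± 0.348 above it (adjusted p = 0.000354) but inside their range of 0.50 to 3.48. Asns did not pass the test of the difference (0.28 ± 0.288, adjusted p = 0.527). Without mono-culture replicate 4 the counts were 3 above and 6 below, so that the balance turned. The count above was 5 without mono-culture replicate 2, coculture replicate 1 or coculture replicate 3, and the count below was 1 without coculture replicate 1.

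Some promoters of this group hold letters that ATF4 reads. The letters TGATGNAA, a form of its C/EBP-ATF response element, were searched on both strands in the 250 bases before the RefSeq start of each gene, and were found in 13 of 42 stress response genes with such a window (31%) and in 239 of all 9781 windows (2.44%). Of the 13 genes, 9 passed the test in clone E, all of them upward, beside 61.3% of all genes that passed in either direction and 42 of 53 that rose in the whole list. Stretches of 30 bases around the match in 5 of them are shown from RefSeq on GRCm38.p6, 5′ to 3′ on the strand that holds the match, with the matched letters in capitals.

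Pycr1 (chr11:120643833-120643862, minus strand): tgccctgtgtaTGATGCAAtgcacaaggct

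Asns (chr6:7693214-7693243, minus strand): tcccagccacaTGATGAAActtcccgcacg

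Chac1 (chr2:119351038-119351067, minus strand): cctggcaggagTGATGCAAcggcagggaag

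Gars (chr6:55037960-55037989, minus strand): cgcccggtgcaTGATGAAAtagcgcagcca

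Pck2 (chr14:55540152-55540181, minus strand): ctgtaagatacTGATGTAActttgaaggct

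Chac1, which degrades glutathione, rose from 40.8, 28.8, 40.3 and 17.3 CPM to 109, 87.2, 135 and 94.4 CPM, by 1.74 ± 0.355 (adjusted p = 4.47e-05). Gars, the glycyl-tRNA synthetase, rose from 329, 269, 303 and 212 CPM to 775, 583, 705 and 622 CPM, by 1.27 ± 0.179 (adjusted p = 4.71e-08). Tars and Aars, the threonyl- and alanyl-tRNA synthetases, hold the letters too and rose by 0.97 ± 0.161 and 0.82 ± 0.173 (adjusted p = 1.33e-06 and 7.4e-05). The remaining pair was weaker. Nupr1, a stress-induced chromatin protein, rose by 0.63 ± 0.243 (adjusted p = 0.024), and Slc7a11, the cystine importer, by 0.70 ± 0.322 (adjusted p = 0.0591), with overlapping cultures at 113 to 310 and 272 to 436 CPM. Slc7a11 no longer passed the test without mono-culture replicate 2 or 4 or coculture replicate 1 or 3, nor did Nupr1 without coculture replicate 4.

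Genes of ribosome production rose in clone E more than in any other line. Of 37 Myc targets, mostly nucleolar proteins that process ribosomal RNA, 35 rose and none fell, beside 32.1% and 29.2% of all genes. The median log2 fold change of the list was 0.96 against 0.49 for the mean of the other lines. Their own medians ran from 0.28 (clone N) to 0.77 (clone T). The response of 24 of the 37 passed the test as larger than the mean of the other lines and of none as smaller, against 15.2% of all genes larger. Whether or not they passed, all 37 were larger. Myc itself (chr15:61985391-61990374) went from 306, 235, 265 and 270 CPM to 570, 455, 703 and 507 CPM, by 1.05 ± 0.178 (adjusted p = 1.83e-06), and its own response did not pass the test against the other lines (0.24 ± 0.189, adjusted p = 0.38). Rrp9, a processing factor of the small subunit RNA, went from 19.7, 17.4, 17.8 and 15 CPM to 61.7, 46.3, 50.2 and 57.8 CPM, by 1.63 ± 0.171, and exceeded the mean of the other lines by 0.91 ± 0.181 (adjusted p = 0.000229). Nop2, an RNA methyltransferase of the nucleolus, went from 101, 87.8, 87.4 and 77.2 CPM to 260, 207, 264 and 229 CPM, by 1.44 ± 0.145, and exceeded that mean by 0.73 ± 0.153 (adjusted p = 0.000425). For Rrp9 and Nop2 every coculture library was above every mono-culture, and the response of clone E was above that of each other line.

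The remaining Myc targets with the clearest differences behaved alike in these libraries. Wdr12, a factor of large subunit assembly, rose by 1.19 ± 0.122 and exceeded the mean of the other lines by 0.66 ± 0.129 (adjusted p = 0.000208). Mybbp1a, a nucleolar Myb-binding protein, rose by 0.99 ± 0.105, with a difference of 0.57 ± 0.112 (adjusted p = 0.000211). Imp4, of the small subunit processome, rose by 0.61 ± 0.104 whereas the mean of the other lines was 0.04, with a range of -0.22 to 0.23. Nolc1, a nucleolar phosphoprotein, rose by 1.43 ± 0.152, just inside the other lines' upper end of 1.46. Left out 1 at a time, the 8 clone E libraries gave between 20 and 27 members whose larger response passed the test.

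Ribosomal proteins moved by less, and in the same direction. Of 62 cytosolic ribosomal protein genes, 55 rose in clone E and 1 fell, beside 32.1% and 29.2% of all genes. The list median was 0.44 against 0.16 for the mean of the other lines. Rps25 went from 467, 557, 402 and 432 CPM to 860, 779, 614 and 952 CPM, by 0.79 ± 0.141 (adjusted p = 5.43e-06), against 0.17 to 0.44 in the 7 other lines. Rps2 went from 1418, 1424, 1185 and 1232 CPM to 2208, 2132, 1725 and 1886 CPM, by 0.60 ± 0.103 (adjusted p = 2.92e-06). Rpl8 and Rps6 each rose by 0.66, with adjusted p = 6.34e-07 and 1.46e-05. Whether or not the test was passed, the response of 61 of the 62 was larger in clone E than in the mean of the other lines. That of 30 passed as larger and that of 1 as smaller, against 15.2% and 14.2% of all genes. But the count of 30 rested on single libraries. It was 51 without coculture replicate 3, 36 without mono-culture replicate 2, and 10, 5 and 4 without mono-culture replicates 1, 3 and 4, and 6, 11 and 6 without coculture replicates 1, 2 and 4. Ribosomal proteins have many processed pseudogenes, so that reads may be shared with near-identical copies.

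Cytosolic chaperones rose beside them. Of 23 heat shock and chaperonin genes, 15 rose and 5 fell, beside 32.1% and 29.2% of all genes. The list median was 0.63 against 0.24 for the mean of the other lines. The response of 12 passed the test above that mean and of 4 below it, against 15.2% and 14.2% of all genes. Cct2, a subunit of the chaperonin that folds actin and tubulin, went from 549, 531, 518 and 474 CPM to 985, 888, 975 and 987 CPM, by 0.89 ± 0.0961 (adjusted p = 8.84e-11). Cct5 of the same complex rose by 0.73 ± 0.0896 (adjusted p = 1.89e-09), Stip1, which links Hsp70 to Hsp90, by 0.71 ± 0.0885 (adjusted p = 3.1e-09), and Hspa4, an Hsp70 cofactor, by 0.75 ± 0.0984 (adjusted p = 9.77e-09).

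Replication genes rose in clone E about as they did in the other lines. Of 58 cell cycle and replication genes, 44 rose and 1 fell, beside 32.1% and 29.2% of all genes. The list median was 0.66 against 0.76 for the mean of the other lines. The response of 2 passed the test above that mean and of 3 below it, against 15.2% and 14.2% of all genes. Neither the count above nor the count below was stable. None passed above it without mono-culture replicate 3 or 4 or coculture replicate 1 or 4, and 4 did without coculture replicate 2. Only 1 passed below it without mono-culture replicate 1, coculture replicate 2 or coculture replicate 4. Cdt1, a licensing factor of replication origins, went from 37.4, 29.7, 24.4 and 26.6 CPM to 64.9, 57.9, 70.5 and 58.3 CPM, by 1.09 ± 0.18 (adjusted p = 1.19e-06). Gins2, of the replicative helicase, rose by 1.18 ± 0.197 (adjusted p = 1.53e-06), and Ccne1, the cyclin of entry into S phase, by 1.30 ± 0.22 (adjusted p = 1.87e-06).

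Mitochondrial transcripts split by the genome that encodes them. Of 47 nuclear genes of the respiratory chain, 28 rose and 4 fell, beside 32.1% and 29.2% of all genes. The list median was 0.23 against 0.04 for the mean of the other lines. The response of 12 passed the test above that mean and of none below it, against 15.2% and 14.2% of all genes. Of 11 tested genes of the mitochondrial genome none rose and 8 fell, with a median of -0.80 against -0.42. mt-Nd4, a subunit of complex I, went from 2033, 3345, 2362 and 2363 CPM to 874, 1653, 1137 and 924 CPM, a log2 fold change of -1.14 ± 0.197 (adjusted p = 2.93e-06), and its difference of -0.53 ± 0.209 passed the test by a small margin (adjusted p = 0.0607) and no longer passed without mono-culture replicate 2 or coculture replicate 1 or 4. One of the 8, mt-Nd6, lies on the strand opposite to most of the others, and the fall of its counts (log2 fold change of -1.20) was not there in the deposited RPKM values (0.00 on the log2(RPKM + 1) scale), so its counts may include reads of the other strand.

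**Figure D2:**
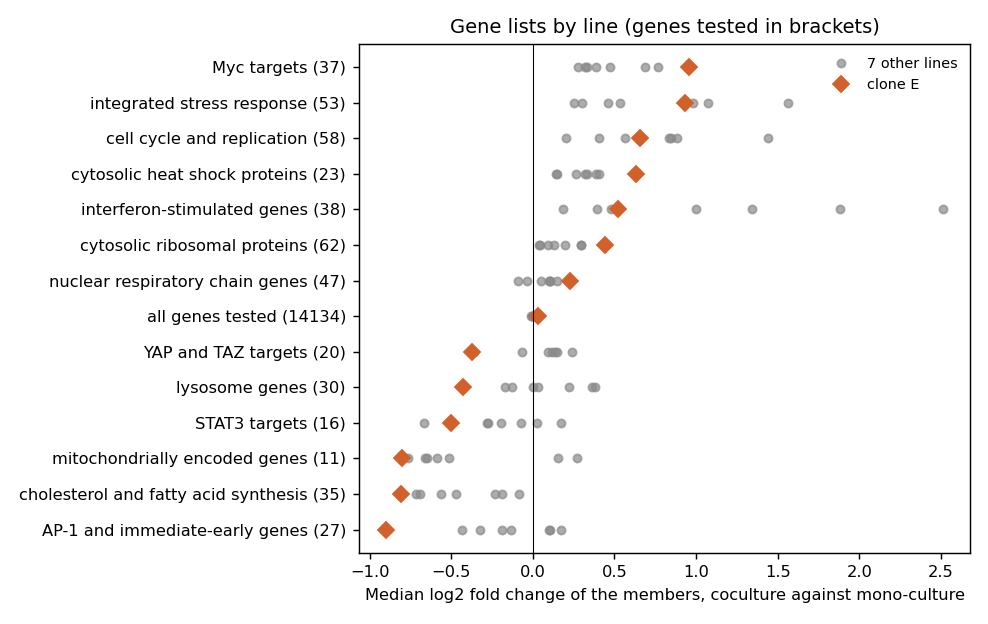
Median log2 fold change, coculture against mono-culture, of the tested members of 13 gene lists and of all genes tested, by line. Orange diamonds are clone E and grey points are the 7 other lines. Clone E was the highest line for Myc targets (0.96), ribosomal proteins (0.44) and heat shock proteins (0.63) and the lowest for lysosome genes (-0.43), cholesterol and fatty acid synthesis (-0.81) and AP-1 and immediate-early genes (-0.90).

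Of 21 tested epithelial and ductal markers, 10 fell and 4 rose in clone E, beside 29.2% and 32.1% of all genes. Their median was -0.38 against -0.30 for the mean of the other lines. Of 30 targets of Nrf2, the factor behind many detoxification genes, 11 fell and 9 rose, near those shares of all genes. The median of the Nrf2 targets was -0.16 against -0.04 for the mean of the other lines. Gsta1, a glutathione transferase, went from 141, 135, 86.6 and 130 CPM to 5.13, 7.95, 1.75 and 2.29 CPM, a log2 fold change of -4.84 ± 0.508 (adjusted p = 4.05e-11). It has near-identical paralogs, so how its reads were shared is uncertain. Lgals4, a galectin of gut and ductal epithelium, went from 123, 131, 239 and 103 CPM to 11.4, 19.1, 14 and 10.2 CPM, by -3.44 ± 0.343 (adjusted p = 1.17e-11), and fell more than the mean of the other lines by 2.02 ± 0.37 (adjusted p = 8.44e-05). Wnt4, a secreted Wnt ligand, went from 102, 120, 132 and 136 CPM to 8.1, 23, 4.89 and 2.37 CPM, by -3.67 ± 0.469 (adjusted p = 5.05e-09), and this fall was shared: the other lines ran from -5.84 to -1.90, and the difference of -0.25 did not pass the test (adjusted p = 0.835). With limma on the log2 RPKM values the difference of Wnt4 did pass, with either pseudocount, and was -1.52 on the log2(RPKM + 1) scale.

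A further 6 genes of the largest falls were low in mono-culture or kept a higher level in coculture replicate 2. Tmigd1, an adhesion molecule of epithelia, went from 46, 46, 36.9 and 58.9 CPM to 0.527, 7.88, 0.349 and 0.717 CPM. Myo15b, an unconventional myosin, C4bp, a complement inhibitor, Adamts15, a matrix protease, Sgpp2, a phosphatase of sphingosine phosphate, and Tnr, a matrix glycoprotein, were at 4.32 to 26.5 CPM in mono-culture, and none exceeded 1.78 CPM in coculture. The falls of these 6 genes were between 4.19 and 4.37 on the log2 scale, with adjusted p-values between 1.06e-08 and 2.05e-05. In all of them the 4 coculture libraries lay below the 4 mono-cultures. Gclc, the rate-limiting enzyme of glutathione synthesis, fell at a higher level, from 254, 238, 293 and 283 CPM to 85.7, 87.3, 93.9 and 97.8 CPM, by -1.55 ± 0.157 (adjusted p = 1.6e-11). The other lines ran from -1.48 to 0.57 for Gclc, and the difference from their mean was -1.06 ± 0.165 (adjusted p = 7.97e-06).

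Immediate-early genes fell in clone E, and the medians of the other lines ran from -0.43 (clone M) and -0.32 (clone K) to 0.17 (clone V). Of 27 tested members, 16 fell and 4 rose, beside 29.2% and 32.1% of all genes. The list median was -0.90 against -0.07 for the mean of the other lines. The response of 12 passed the test below that mean and of none above it, against 14.2% and 15.2% of all genes. Zfp36, which marks mRNAs for decay (chr7:28376784-28380253), went from 470, 385, 329 and 809 CPM to 62, 69, 37.9 and 36.5 CPM, by -3.28 ± 0.46 (adjusted p = 4.28e-08), against a mean of -1.10 and a range of -2.75 to -0.11. Btg2, an antiproliferative factor, went from 129, 84.3, 103 and 270 CPM to 15.3, 17.5, 14.9 and 15.4 CPM, by -3.21 ± 0.386 (adjusted p = 1.18e-09). Both fell further in clone E than in any other line. Junb, an AP-1 subunit, went from 421, 468, 426 and 679 CPM to 201, 238, 144 and 152 CPM, by -1.44 ± 0.231 (adjusted p = 7.03e-07). Klf2, a zinc finger factor, fell by 1.82 ± 0.367 (adjusted p = 3.67e-05). Fos, named after its values were seen, went from 292, 235, 152 and 805 CPM to 49.4, 30, 20.7 and 60.9 CPM, and its difference from the other lines was at the threshold (adjusted p = 0.0984) and no longer passed when any library but mono-culture replicate 2 or 3 was left out. Mono-culture replicate 4 was the highest library for Zfp36, Btg2, Junb, Klf2 and Fos, and without it 13 members fell and 11 lay below the mean of the other lines.

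Targets of STAT3, a factor activated by cytokines, were divided. Of 16 members, Junb among them, 6 rose and 9 fell in clone E, beside 32.1% and 29.2% of all genes. The list median was -0.5 in clone E and lower in clone T, at -0.66. The response of 3 passed the test above the mean of the other lines and of 8 below it, against 15.2% and 14.2% of all genes. Members named here are among those that fell. Stat3 itself went from 159, 165, 205 and 196 CPM to 68.9, 102, 74.7 and 59.2 CPM, by -1.25 ± 0.138 (adjusted p = 1.27e-10), below the other lines' range of -1.01 to 0.07. Socs3, its feedback inhibitor, went from 88.7, 85.4, 69.4 and 167 CPM to 38.3, 43.4, 34.7 and 32.7 CPM, by -1.46 ± 0.238 (adjusted p = 9.61e-07), against -1.07 to 0.35. Bcl6, a transcriptional repressor, went from 49.9, 44, 58.6 and 61.4 CPM to 23.6, 24.9, 25.2 and 20.2 CPM, by -1.19 ± 0.129 (adjusted p = 9.78e-11), against -0.66 to 0.37. For these 3 genes the cultures did not overlap and clone E was the lowest of the 8 lines.

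Sterol and fatty acid synthesis fell nearly as a block. Of 35 tested genes, 32 fell and 1 rose in clone E, beside 29.2% and 32.1% of all genes. The list median was -0.81, against -0.41 for the mean of the other lines. The response of 14 passed the test below that mean and of 1 above it, against 14.2% and 15.2% of all genes. Acss2, which makes acetyl-CoA from acetate (chr2:155517948-155585724), went from 65.6, 86.5, 57.8 and 91.2 CPM to 7.04, 17.1, 5.17 and 7.95 CPM, by -3.01 ± 0.358 (adjusted p = 9.37e-10), below the other lines' range of -2.40 to -0.77. Scd2, a fatty acid desaturase, went from 5895, 5130, 6114 and 6768 CPM to 2408, 2715, 2199 and 1813 CPM, by -1.39 ± 0.171 (adjusted p = 2.22e-09). Scd1, of the same family, changed by -1.16 ± 0.163 (adjusted p = 4.18e-08), and Srebf1, the gene of the SREBP-1 factor, by -0.73 ± 0.104 (adjusted p = 5.66e-08). For all 4 genes the 4 cocultures lay below the 4 mono-cultures. The count of 14 was 9 without mono-culture replicate 4 or coculture replicate 3, and 8 without coculture replicate 4.

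Lysosomal genes fell in clone E, whereas the medians of the other lines ran from -0.17 (clone M) to 0.38 (KPC1). Of 30 tested genes, 18 fell and 2 rose, beside 29.2% and 32.1% of all genes. The list median was -0.43 against 0.07 for the mean of the other lines. The response of 20 passed the test below that mean and of none above it, against 14.2% and 15.2% of all genes. This count of 20 was between 18 and 23 when each clone E library was left out in turn. Neu1, a sialidase (chr17:34931253-34935953), went from 293, 402, 302 and 314 CPM to 113, 196, 111 and 122 CPM, by -1.27 ± 0.179 (adjusted p = 4.26e-08), against -0.71 to 0.95 in the other lines. Hexa, a hexosaminidase, went from 178, 197, 159 and 184 CPM to 69.1, 114, 74 and 83.2 CPM, by -1.08 ± 0.16 (adjusted p = 1.49e-07), and Psap, the precursor of the saposins, from 966, 1042, 870 and 1152 CPM to 466, 736, 528 and 364 CPM, by -0.94 ± 0.158 (adjusted p = 1.44e-06). Neu1, Hexa and Psap fell further in clone E than in any other line. Tfeb, the factor that drives lysosomal genes, went from 35.8, 35.9, 35.7 and 41.2 CPM to 11.8, 20.2, 10.2 and 8.24 CPM, by -1.56 ± 0.178 (adjusted p = 3.37e-10). Its response lay inside the other lines' range of -1.94 to 0.03. For Neu1, Hexa and Psap coculture replicate 2 was the highest of the 4 cocultures.

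TFEB binds the CLEAR element, whose core TCACGTGA is its own reverse complement and contains the shorter E-box CACGTG. These 8 letters were present in 4 of 22 lysosomal genes with a promoter window (18.2%) and in 176 of all 9781 windows (1.8%). The 4 stretches are shown in the same way as above, since all 4 genes passed the test in clone E, 3 falling and 1, Atp6v1a, with a small rise that rested on single libraries.

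Ctsd (chr7:142387908-142387937, minus strand): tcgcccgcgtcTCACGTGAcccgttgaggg

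Mcoln1 (chr8:3500462-3500491, plus strand): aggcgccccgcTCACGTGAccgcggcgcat

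Ctsa (chr2:164833749-164833778, plus strand): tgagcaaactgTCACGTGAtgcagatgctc

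Atp6v1a (chr16:44139373-44139402, minus strand): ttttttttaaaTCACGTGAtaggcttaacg

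Ctsd, the lysosomal protease cathepsin D, went from 588, 658, 518 and 597 CPM to 424, 567, 374 and 374 CPM, by -0.44 ± 0.122 (adjusted p = 0.00197). Ctsa, a carboxypeptidase that protects Neu1, changed by -0.46 ± 0.129 (adjusted p = 0.00215), and Mcoln1, a lysosomal calcium channel, by -0.35 ± 0.0973 (adjusted p = 0.00214). All 3 responses lay below the mean of the other lines as well, with adjusted p-values of 0.00482, 0.00402 and 0.00626. Atp6v1a, a subunit of the proton pump, went from 146, 134, 124 and 146 CPM to 170, 164, 154 and 172 CPM, by 0.26 ± 0.126 (adjusted p = 0.0728), which no longer passed when mono-culture replicate 2, 3 or 4 or coculture replicate 1 or 4 was left out. Its difference from the other lines was -0.11 ± 0.134 (adjusted p = 0.592).

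Interferon-stimulated genes were divided in clone E, whose median was above 0 as in all 7 other lines and ranked 5th of 8, above clones M (0.18), N (0.39) and T (0.48). Of 38 tested genes, 17 rose and 13 fell, beside 32.1% and 29.2% of all genes. The list median was 0.52 (0.48 with members at or under the floor set to their bound) against 1.17 for the mean of the other lines. The response of 15 passed the test below that mean and of 2 above it, against 14.2% and 15.2% of all genes. Ifih1, an RNA sensor, went from 9.44, 8.72, 10.5 and 11.4 CPM to 6.65, 6.99, 4.82 and 6.16 CPM, by -0.70 ± 0.289 (adjusted p = 0.0362, not passed without coculture replicate 3), against a mean of 0.91. Isg15, a ubiquitin-like protein, rose from 0.278, 0.745, 0.376 and 0.31 CPM to 2.77, 1.85, 2.23 and 4.59 CPM, which did not differ from the other lines (adjusted p = 0.481). Ifi27, an interferon-induced protein, was at or near 0 in mono-culture and at 1.58, 2.12, 3.14 and 4.66 CPM in coculture. At this depth the genes that rose were at a low level, and with log2(RPKM + 1) values 8 of the list rose.

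Of 14 antigen presentation genes, 5 rose (2 with log2(RPKM + 1) values) and 4 fell in clone E, near the 32.1% and 29.2% of all genes. The response of 6 passed the test below the mean of the other lines and of 1 above it, against 14.2% and 15.2% of all genes. Tapbp, which loads peptides onto class I molecules, went from 379, 385, 332 and 436 CPM to 151, 252, 140 and 115 CPM, by -1.22 ± 0.213 (adjusted p = 3.46e-06), below the other lines' range of -0.67 to 0.32. B2m, the light chain of class I, was at 489, 633, 431 and 575 CPM and then 384, 584, 401 and 396 CPM, with overlapping cultures. Its change of -0.27 ± 0.166 did not pass the test in clone E (adjusted p = 0.164), although it did without mono-culture replicate 3 or coculture replicate 2, and it differed from the rise of 0.38 in the mean of the other lines (adjusted p = 0.00596).

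YAP and TAZ targets, genes of the Hippo pathway that respond to cell density and matrix, fell in 12 of 20 cases and rose in 4. Over all genes tested, 29.2% fell and 32.1% rose. The list median was -0.37 against 0.09 for the mean of the other lines (-0.36 in clone K). The response of 11 passed the test below that mean and of 3 above it, against 14.2% and 15.2% of all genes. Without coculture replicate 4, the response of 7 passed below it. Tgfb2, a transforming growth factor beta ligand, went from 39, 45.8, 40.4 and 52.2 CPM to 14.6, 21, 13.6 and 10.2 CPM, by -1.57 ± 0.319 (adjusted p = 3.97e-05), below each of the 7 other lines. Ptpn14, a phosphatase that restrains YAP, changed by -0.80 ± 0.131 (adjusted p = 8.82e-07). Ankrd1, a common readout of YAP activity, moved the other way, from 140, 148, 105 and 126 CPM to 420, 278, 441 and 338 CPM, by 1.51 ± 0.28 (adjusted p = 9.87e-06), and did not differ from the mean of the other lines (0.21 ± 0.294, adjusted p = 0.663).

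**Figure D3:**
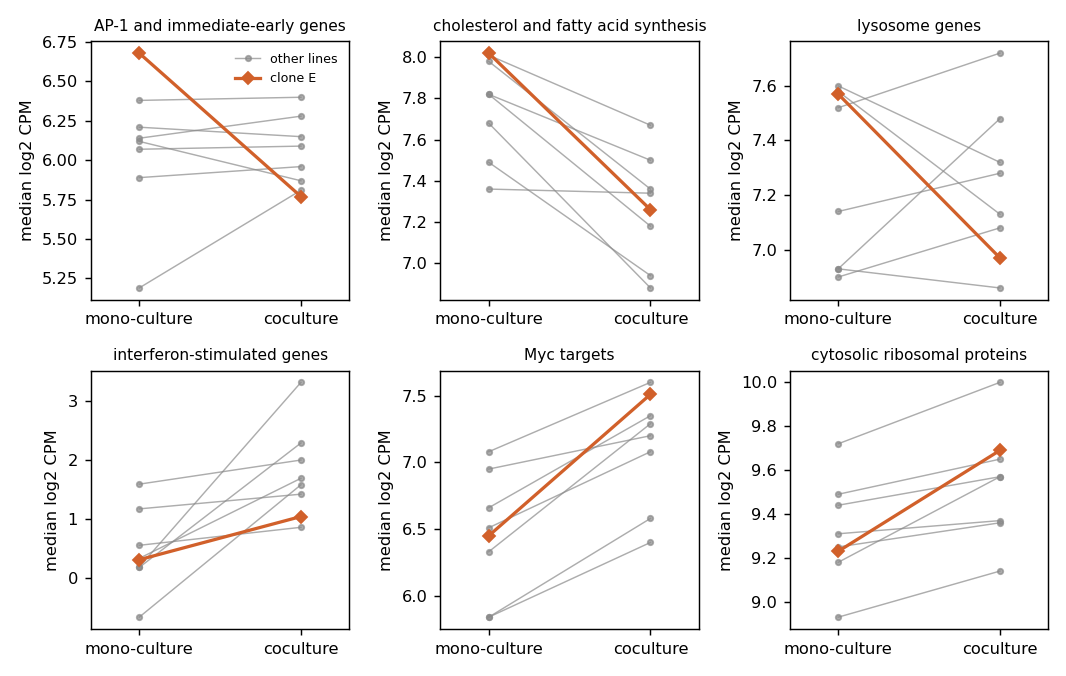
Median log2 CPM of the tested members of 6 gene lists in mono-culture and in coculture, with a line for each cell line, clone E in orange. For immediate-early genes clone E went from the highest of the 8 lines to the lowest, and for Myc targets from 5th to 2nd.

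The place of clone E among the lines changed with the culture for several lists, which is described here by the median over members of the difference in log2 CPM between clone E and the mean of the other lines. Immediate-early genes were 0.45 above the other lines in mono-culture and 0.20 below them in coculture (-0.20). Sterol and fatty acid genes went from 0.32 above to -0.03, and lysosomal genes from 0.11 above to -0.34. Interferon-stimulated genes were at -0.14 in mono-culture and at -0.76 in coculture. Myc targets went the other way, from -0.08 to 0.32, as did ribosomal proteins, from -0.09 to 0.18. The response of a line contains its starting level, so these levels and the differences in response above are the same data seen in 2 ways.

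The difference between clone E and the mean response of the other 7 lines was tested gene by gene. It passed for 4157 genes, 29.4% of those tested, of which 2149 were higher in clone E (1395 without mono-culture replicate 4) and 2008 lower. The difference was at least 1 on the log2 scale for 745 genes, and 2782 also lay outside the range of all 7 other lines, beside 4051 genes (28.7%) outside it whether or not they passed. Some genes passed for clone E, for the mean of the other lines and for the difference, with both moving in one direction. Of these, clone E moved further in 2526 genes and less far in 21. This leaves out genes where the other lines moved and clone E itself did not pass, which favours the larger count. Clone E and the mean of the other lines passed the test in opposite directions in 261 genes. The same contrast for each other line in turn gave between 982 (clone N) and 4839 (clone K) genes, so clone E is not set apart by its count. These tests use the spread between libraries. When each line was summed to 1 value per culture and the lines served as replicates, 0 of 16917 genes passed edgeR's test, 884 had an unadjusted p-value under 0.05 (5.23%), and 19 genes passed with DESeq2. The study has 1 clone E to set against 7 lines that differ among themselves.

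**Figure D4:**
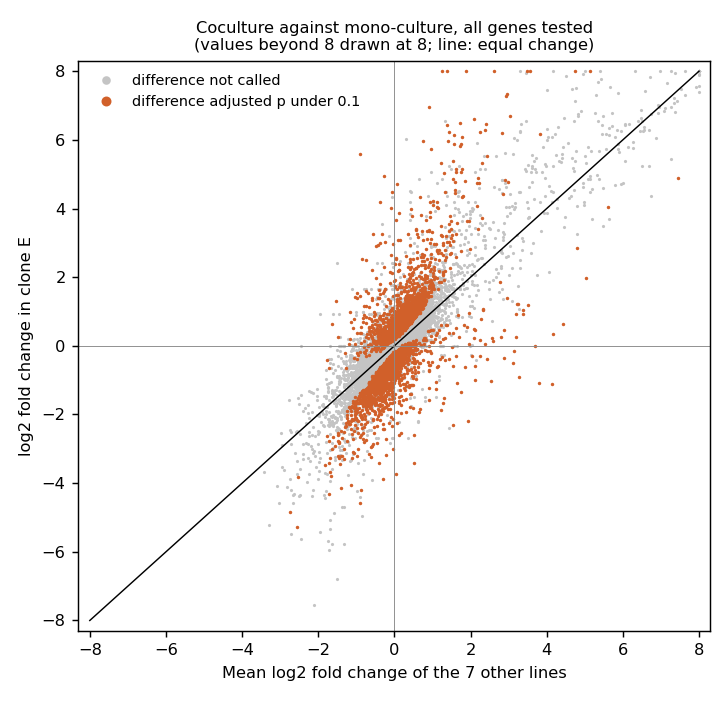
Log2 fold change of each of 14134 genes in clone E (vertical axis) against the mean of the 7 other lines (horizontal axis), with values beyond 8 drawn at 8. Orange genes passed the test of the difference, and the diagonal marks equal change. Of those on the same side of 0, some also passed in clone E and in the mean of the other lines. Among these, 2526 changed more in clone E and 21 changed less, and genes that did not pass in clone E are left out.

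Among the largest positive differences were genes that were silent or nearly so in clone E in mono-culture and read in the other lines. Cxcl12, a chemokine made by fibroblasts, had no count in the 4 mono-cultures and 6.32, 4.59, 9.78 and 15.3 CPM in the cocultures, at least 207-fold higher by the floor of 3 counts, while the mono-culture means of the other lines ran from 0.0922 to 876 CPM. Pdgfra, the receptor that marks fibroblasts, went from 0.185, 0.522, 0.376 and 0.805 CPM to 3.62, 5.55, 14.2 and 10.7 CPM, and the other lines in mono-culture from 2.87 to 31.7 CPM. Myh10, a nonmuscle myosin, went from 0.37, 0.447, 0.43 and 0.372 CPM to 5.4, 4.11, 10.1 and 10.3 CPM. Prrx1, a mesenchymal homeobox factor, rose by 3.31 ± 0.302 and Ptk7, a pseudokinase of planar polarity, by 4.53 ± 0.519 (adjusted p = 9.74e-13 and 3.59e-10). Sla, an adaptor of receptor signaling, went from 0.37, 0.224, 0.215 and 0.31 CPM to 7.9, 7.88, 7.54 and 9.53 CPM. In coculture libraries 1 to 4 the summed silent fibroblast marker level was 32.1, 51.9, 79.8 and 79.6 CPM. Whether the levels of these 6 genes are tied to that sum was not tested.

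Among the largest negative differences were genes that fell in clone E, and some of the genes named here started very low in other lines. Maf, a basic leucine zipper factor, went from 134, 133, 128 and 164 CPM to 12.9, 42.7, 10.8 and 12.3 CPM, by -2.83 ± 0.415 (adjusted p = 1.11e-07), against -2.49 to 1.18 in the other lines. Mark1, a kinase of microtubule-associated proteins, went from 8.74, 9.17, 9.45 and 11 CPM to 0.79, 2.67, 1.82 and 1 CPM, and Serpinb8, a protease inhibitor, from 12.6, 11.2, 8.43 and 13.6 CPM to 1.65, 4.38, 1.61 and 2.08 CPM. Iigp1, an interferon-induced GTPase, went from 14.3, 22.5, 8.75 and 24.8 CPM to 2.77, 8.36, 1.19 and 1.94 CPM, and Il7, a lymphocyte growth factor, changed by -1.80 ± 0.415 (adjusted p = 0.000277). Pdlim1, a cytoskeletal adaptor, changed by -1.51 ± 0.263 in clone E (adjusted p = 2.99e-06), with other lines from 0.399 CPM in mono-culture upward. Gem, a small GTPase, did not pass the test in clone E (0.27 ± 0.338, adjusted p = 0.519), and its difference of -2.94 came with mono-culture means as low as 0 CPM in the other lines.

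A total of 36 genes (0.255% of those tested) changed in clone E alone, meaning by at least 1 on the log2 scale in clone E, with a difference that passed the test, and by less than 0.5 in the same direction in each of the 7 other lines. Of these, 23 rose and 13 fell. The rule sets no limit on movement in the opposite direction, so other lines could move against clone E. Rnf150, named below, fell in clone E and rose in all 7 other lines. The count of falling genes was 20 without mono-culture replicate 2 and 22 without coculture replicate 2. The same rule gave between 3 genes (2 rising and 1 falling, clone N) and 83 genes (20 and 63, clone V) in the other lines. Neto2, an accessory subunit of kainate receptors, went from 26.6, 21.6, 27.2 and 23.7 CPM to 62, 49.4, 61.2 and 47.7 CPM, by 1.15 ± 0.151 (adjusted p = 9.92e-09), and the other lines ran from -0.86 to 0.17. Sssca1, an autoantigen of scleroderma, went from 17.9, 18.6, 16.4 and 13.4 CPM to 38, 33.2, 35.3 and 37 CPM, by 1.11 ± 0.115 (adjusted p = 3.08e-11). Ppif, cyclophilin D of the mitochondrial matrix, went from 19, 21.6, 16.1 and 17.8 CPM to 42.6, 34, 38.3 and 36.4 CPM, by 1.02 ± 0.103 (adjusted p = 1.31e-11). Paox, a polyamine oxidase, went from 17.1, 19.2, 22.6 and 17.2 CPM to 36.8, 37.4, 40.7 and 38 CPM, by 1.01 ± 0.12 (adjusted p = 9.68e-10). For all 4 genes the cultures of clone E did not overlap.

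The named genes that fell in clone E alone included a ubiquitin ligase subunit and several regulators. Fbxo32, known as atrogin-1, went from 33.2, 36.2, 41 and 42.2 CPM to 11.5, 16.9, 12.6 and 13.4 CPM, by -1.49 ± 0.212 (adjusted p = 5.62e-08), against -0.49 to 1.00 in the other lines. Prcp, a lysosomal carboxypeptidase, went from 68.7, 72.3, 81.2 and 80.8 CPM to 24.9, 41, 22.7 and 26.1 CPM, by -1.40 ± 0.235 (adjusted p = 1.64e-06), against -0.28 to 0.36. Bach1, a repressor of antioxidant genes, went from 73.6, 61.2, 98.1 and 86.5 CPM to 31.2, 41.2, 43.2 and 38.5 CPM, by -1.05 ± 0.127 (adjusted p = 1.47e-09). Stat2, which relays interferon signals, went from 42.6, 63.9, 64.2 and 59.3 CPM to 24.1, 30.6, 24.6 and 26.3 CPM, by -1.12 ± 0.239 (adjusted p = 8.51e-05), against -0.39 to 1.32. Cpeb2, which binds the tails of mRNAs, and Pbxip1, which binds PBX factors, changed by -1.05 ± 0.197 and -1.04 ± 0.249 (adjusted p = 1.06e-05 and 0.000364). Rnf150, a ring finger protein, and Eif4g3, a translation initiation factor, changed by -1.12 ± 0.35 and -1.02 ± 0.274 (adjusted p = 0.00608 and 0.0014). Of Rnf150, coculture replicate 2 held 5.55 CPM, beside 6.11 to 7 CPM in mono-culture.

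**Figure D5:**
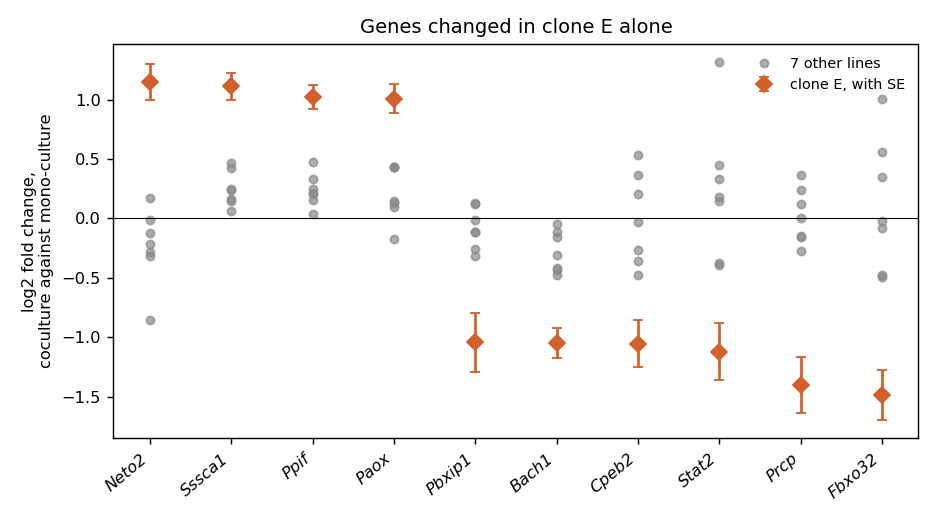
Log2 fold change, coculture against mono-culture, of 10 genes that changed in clone E alone. Orange diamonds are clone E with its SE and grey points are the 7 other lines; clone E was at 1.15 for Neto2 and at -1.49 for Fbxo32, and no grey point moved by 0.5 or more in the direction of clone E.

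In clone E, 7 genes rose and 9 fell, Rnf150 among them, while all 7 other lines had the opposite sign and their mean passed the test. The changes were small where the level was appreciable. Homer1, a scaffold of glutamate receptors, rose by 0.47 ± 0.162 (adjusted p = 0.0124) with overlapping cultures, at 10.3 to 14.8 CPM and 13.4 to 19.6 CPM. Dcaf17, a substrate receptor of a ubiquitin ligase, rose by 0.33 ± 0.122 (adjusted p = 0.02), Urm1, a sulfur carrier for tRNA, by 0.25 ± 0.108 (adjusted p = 0.0471), and Pla2r1, a phospholipase receptor, by 0.90 ± 0.307 (adjusted p = 0.0109). Lgmn, the lysosomal protease legumain, was at 136, 173, 151 and 169 CPM in mono-culture and at 100, 163, 104 and 108 CPM in coculture, a change of -0.40 ± 0.15 (adjusted p = 0.02). The other lines rose in Lgmn by 0.09 to 0.75, and the difference was -0.91 ± 0.161 (adjusted p = 4.76e-05). Tdrd7, a tudor domain protein of RNA granules, changed by -0.40 ± 0.128 (adjusted p = 0.0075), Nrm, a protein of the nuclear envelope, by -0.34 ± 0.163 (adjusted p = 0.07), and Zfhx4, a zinc finger homeobox factor, by -0.90 ± 0.337 (adjusted p = 0.0213). The responses of Urm1 and Nrm rested on single libraries: Urm1 no longer passed the test without mono-culture replicate 1 or 3 or coculture replicate 1 or 4, nor did Nrm without mono-culture replicate 1 or 4 or coculture replicate 4 or with either set of log2 RPKM values.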

How the data were processed

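The series holds 64 polyadenylated, strand-specific, paired-end RNA libraries of 8 tumor lines in mono-culture and in coculture, 4 for each line and culture, which were grouped by the line and culture in their labels. The authors deposited 2 tables: whole-number read counts per gene without normalization, and RPKM values, which divide the reads by gene length and library total. The submitters' processing notes name featureCounts, edgeR and the mm10 build, and their versions are not given in the sources used here. Gene positions were taken from GENCODE M21 and promoter sequences from RefSeq, both on GRCm38, and 9781 of 14115 tested gene symbols had a promoter window. The strand setting of the counting is not given, so reads of a gene and of an antisense partner cannot be told apart in the deposited counts.

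Counts were analysed with edgeR 4.0.16 in R 4.3.3: TMM normalization, filterByExpr on the 16 groups (14134 of 39017 genes tested), a quasi-likelihood fit of 16 group means over all 64 libraries, and Benjamini-Hochberg adjustment over all genes tested, with a threshold of 0.1. The 1st contrast was coculture minus mono-culture in clone E, and the 2nd was this response minus the mean response of the 7 other lines. A 3rd fit used counts summed over the 4 libraries of each line and culture, with lines as replicates. Fold changes are log2 with their SE. Expression is given as CPM over TMM-adjusted library totals, and levels of lists as log2 CPM with a prior count of 0.5. A floor of 3 counts over the 4 clone E mono-cultures was 0.043 CPM. At depths of 13063681 to 21333683 counts the lowest levels named rest on few counts, so counting error is large there and smaller at higher levels. Gene lists are described by counts and medians only, without a set test.

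The lines, gene lists, naming rule and tests were chosen with earlier results of these data known. Genes were named by a rule: the 8 largest rises and falls in clone E above 5 CPM in mono-culture, the 10 largest differences in each direction outside the range of the other lines, the 10 largest changes in each direction in clone E alone, the 6 largest opposite changes in each direction, the members of each list with the smallest p-values, genes the study names, and the fibroblast markers. Not every gene that the rule allows is named, and a few are not reported here. Fos and the genes whose promoters are described were named after their values were seen. In the text a gene's difference is left out where its SE shows that it could not be estimated.

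Replicate numbers were checked for pairing and were not used as pairs, and no label ties a number to a culture or day. The labels number the 64 libraries in a single run, which was split into 2 parts for this work, and all clone E libraries fall in the 1st part. Within clone E every coculture has a higher number than every mono-culture, whereas in each other line the numbers of the cultures overlap. Coculture and number order therefore cannot be told apart in clone E, and the split into parts cannot separate them. The alternatives were RLE and DESeq2 1.42.0, other filters and thresholds, a replicate block, the clone E libraries alone, the part of the run as a covariate, each other line left out, and limma 3.58.1 on log2(RPKM + 1) and log2(RPKM + 0.1). Leaving out single libraries and DESeq2 for the gene lists were chosen after seeing the data. On simulated counts, 99 of 100 genes changed by 1 on the log2 scale and 61 of 100 changed by 0.5 were recovered for the clone E response (13838 genes), 99 and 55 for the difference, and 2 and 0 with lines as replicates (14055 genes). The changed genes had at least 5 CPM in clone E mono-culture. False calls were 17 of 177 for the response and 19 of 173 for the difference. The spread between lines was assumed and not estimated from these data, so 2 and 0 hold for that spread only.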

Additional observations from a re-analysis of the deposited data

Results flagged for a closer look

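In clone E, 15 of 239 groups of 4 libraries had a library whose gap to the others exceeded Dixon's 95% critical value, where chance flags about 1 in 20 groups. Of these, 10 concern coculture replicate 2. It held 7.88 CPM of Tmigd1 beside at most 0.717 CPM in the other 3, 42.7 CPM of Maf beside at most 12.9, 5.55 CPM of Rnf150 beside at most 2.17, and 4.38 CPM of Serpinb8 beside at most 2.08. It was also the highest for Neu1 (196 CPM beside at most 122), B2m (584 beside at most 401), Lgmn (163 beside at most 108), Mcoln1 (49.3 beside at most 40.5) and Ctsa (452 beside at most 305), and the lowest for Cct2 (888 beside at least 975). Mono-culture replicate 4 stood apart for Krt8 (961 CPM, lower), Tfeb (41.2 CPM, higher) and Maf (164 CPM, higher), mono-culture replicate 3 for Myo15b (26.5 CPM, higher) and mono-culture replicate 2 for Cpeb2 (15.2 CPM, lower).

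The response of clone E differed from the mean of the other lines in 4157 genes by edgeR's test over libraries. Among the genes that changed in clone E alone, the differences in log2 fold change were 1.38 for Neto2, 0.86 for Sssca1, 0.79 for Ppif and 0.79 for Paox, and -1.61 for Fbxo32, -1.42 for Prcp, -1.36 for Stat2, -1.05 for Cpeb2, -0.77 for Bach1, -0.96 for Pbxip1, -5.26 for Rnf150 and -3.56 for Eif4g3. Among the genes that moved against all 7 other lines they were 0.71 for Homer1, 0.45 for Urm1, 0.42 for Dcaf17 and 1.19 for Pla2r1, and -0.91 for Lgmn, -0.69 for Tdrd7, -0.68 for Nrm and -4.18 for Zfhx4. The large values of Rnf150, Eif4g3 and Zfhx4 come with mono-culture means down to 0, 0.0326 and 0 CPM in the other lines.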

How the results depend on the processing

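Counts of genes that rose or fell in clone E, and of genes above or below the mean of the other lines, stayed within 1.5 times their value under every alternative that kept all libraries. Without each clone E library in turn, 4126 to 4546 genes rose, 3715 to 4268 fell, 1395 to 2293 differed upward (1395 without mono-culture replicate 4) and 1429 to 2327 downward. Genes changed in clone E alone numbered 16 to 29 rising and 9 to 22 falling (20 without mono-culture replicate 2 and 22 without coculture replicate 2), and 12 rising with at least 1 CPM in 4 libraries. With lines as replicates DESeq2 called 19 genes (1064 at an unadjusted p-value under 0.05) and edgeR 2 without clone T. Leaving out a library moved the number of list members that passed the test of the difference. Those above the mean of the other lines went to 4 to 51 for ribosomal proteins, 3 to 11 for the integrated stress response (1 to 6 below it) and 0 to 4 for the cell cycle. Those below it went to 8 to 15 for sterol and fatty acid synthesis, 7 to 12 for YAP and TAZ targets, 1 to 4 for the cell cycle and 0 to 6 for mitochondrially encoded genes. With log2(RPKM + 1), 8 interferon-stimulated and 2 antigen presentation genes rose, and mt-Nd6 changed by 0.0035 where its counts fell. The causes were not tested.

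With a replicate block within each line, 4721 genes rose and 4360 fell in clone E, 2528 and 2427 differed from the other lines, and 24 and 12 changed in clone E alone, and in the 8 clone E libraries alone the block gave 4260 and 4080. Same-numbered clone E libraries deviated from their group means with correlations of 0.301, 0.168, 0.512 and -0.0666, and mono-culture replicates 2 and 4 correlated better with another number, so the numbers were not taken to pair the samples.

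Of 235 results for single genes, 199 kept their direction and side of the threshold under every alternative run, 26 lost a call under at least 1, among them the responses of Nrm, Urm1, Atp6v1a and Slc7a11 and the differences of Aldh18a1, Gars, Fos, Rpl8 and Gins2, and 10 gained one: the response of B2m and the differences of Ccne1, Krt8, mt-Nd6, Nupr1, Rps6, Tmigd1, Tnr, Vim and Wnt4. Depth limits the genes under about 1 CPM, where log2(RPKM + 1) shrinks every change.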
